A study of Mus musculus with 2 samples.

Results

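The Hox genes encode homeodomain transcription factors that give cells their position along the head-to-tail axis. In mouse they lie in 4 clusters, and members with the same number in different clusters form a paralog group. Genes at the 3′ end of a cluster (low numbers) are used furthest forward in the body, and genes towards the 5′ end further back, an order called colinearity. In the embryonic hindbrain the low-numbered genes mark the rhombomeres and later the neurons derived from them, the middle groups mark the caudal medulla and the cervical cord, and the high-numbered groups belong to the trunk, the lumbar cord and the tail. Retinoic acid turns the low groups on, Polycomb complexes keep unused Hox genes silent, and TALE homeodomain proteins (Meis, Pbx and Pknox) bind DNA together with Hox proteins.

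All 39 mouse Hox genes were taken by symbol from the 43346 mouse genes that both gene tables list. They comprise 11 Hoxa genes (chr6:52155590-52260880, minus strand), 10 Hoxb genes (chr11:96194316-96368256, plus strand), 9 Hoxc genes (chr15:102921103-103036852, plus strand) and 9 Hoxd genes (chr2:74668310-74765142, plus strand; mm10, which is GRCm38). The RNA came from the hindbrains of pup 1 (replicate 1) and pup 3 (replicate 2), mice of strain B6NCrl at postnatal day 0, with no treatment and no genetic change named in the labels. Each was a Smart-seq library. It started from 13 pg of RNA above 200 nt in size, an amount equated in the labels to 1 cell but drawn from RNA of a whole hindbrain. There is 1 group, each pup has 1 library, sex was not collected, and both pups carry the same donor record, so a difference between them stands without replicates and no test was made.

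The libraries held 35462381 expected counts in pup 1 and 29866728 in pup 3, and a gene counted as detected when its expected count reached 5. Levels are TPM, a transcript abundance normalised for length, with the total set over nuclear genes. All 6 neuron markers were detected in both pups, as were 5 of 10 hindbrain and cerebellum markers and, of 9 forebrain markers, Neurod6 alone. Of 8 meninges and fibroblast markers 6 were detected in both pups, Foxc2 had 0 counts in both, and the list summed to 2566 TPM in pup 1, against 4600 TPM in pup 3. Most of that sum was Ptgds, with 2333 TPM in pup 1 against 4325 TPM in pup 3. The median of the list ran the other way, at 33.6 TPM in pup 1 against 24.6 TPM in pup 3. Col3a1 had 71.7 TPM in pup 1 against 17.1 TPM in pup 3. Foxc1 had 10.2 TPM in pup 1 against 0.212 TPM in pup 3. The other detected markers were higher in pup 3, as Ptgds was. Dcn had 84.6 TPM in pup 1 against 167 TPM in pup 3. Col1a2 had 39.1 TPM in pup 1 against 58.5 TPM in pup 3, and Col1a1 28.1 TPM against 32.1 TPM. Markers of peripheral ganglia and Schwann cells summed to 162 TPM in pup 1, against 8.25 TPM in pup 3. Of 5 spinal motor neuron markers, Mnx1, Chat and Isl2 had 0 counts in both pups, and the list summed to 23.0 TPM in pup 1, against 8.61 TPM in pup 3. In such bulk RNA, fewer cells that express a gene and less RNA per cell cannot be told apart.

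Hox transcripts are related in sequence mainly through the homeobox, which encodes the DNA-binding domain, and this likeness bears on whether reads can be assigned to 1 member. Over the 741 pairs of Hox genes, the longest exact run shared by transcripts of a pair reached 100 nt, the fragment length that the deposited effective lengths imply, in 2 pairs. These were Hoxd3 with Hoxd4 (388 nt) and Hoxc5 with Hoxc10 (168 nt), pairs whose transcripts overlap in the genome. For the other 11 detected Hox genes the longest run shared with another Hox gene was 20 to 52 nt. In both libraries 38 of the 39 Hox genes had a whole-number expected count (within 0.005), and 24 of these were at 0 in both. The exception was Hoxb3, which shared reads with the antisense gene Hoxb3os, as given below. For the others no split of reads between genes showed, though a shared read given wholly to 1 gene would also leave a whole number. Exons of Gm28230, on the same strand, cover 53.1% of the exon bases of Hoxd3 and 39.1% of those of Hoxd4. Gm28230 had 0 counts in both pups.

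Hox expression in the newborn hindbrain was carried by a few genes of the low and middle paralog groups. Of the 39 Hox genes, 6 were detected in both pups (Hoxa2, Hoxa3, Hoxa5, Hoxb3, Hoxb5 and Hoxc4), against 37.8% of the 21461 protein-coding nuclear genes. Those found in pup 1 only were 3 (Hoxa4, Hoxb8 and Hoxd3), against 12.3% of protein-coding genes, and those found in pup 3 only were 4 (Hoxa6, Hoxb6, Hoxb7 and Hoxd4), against 5.45%. The other 26 were detected in neither pup, against 44.5% of protein-coding genes, and 24 of them had 0 counts in both, against 41.4%. Of the 6 shared genes, Hoxa3 in pup 1 (5 counts) and Hoxb3 in pup 3 (5.98 counts) were close to the detection limit. All Hoxb3 counts of pup 3 lay on a transcript that shared reads with the antisense gene Hoxb3os. The summed Hox level was 178 TPM in pup 1, against 248 TPM in pup 3, a mean of 213 ± 50.03 TPM (SD, n = 2).

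**Figure D1:**
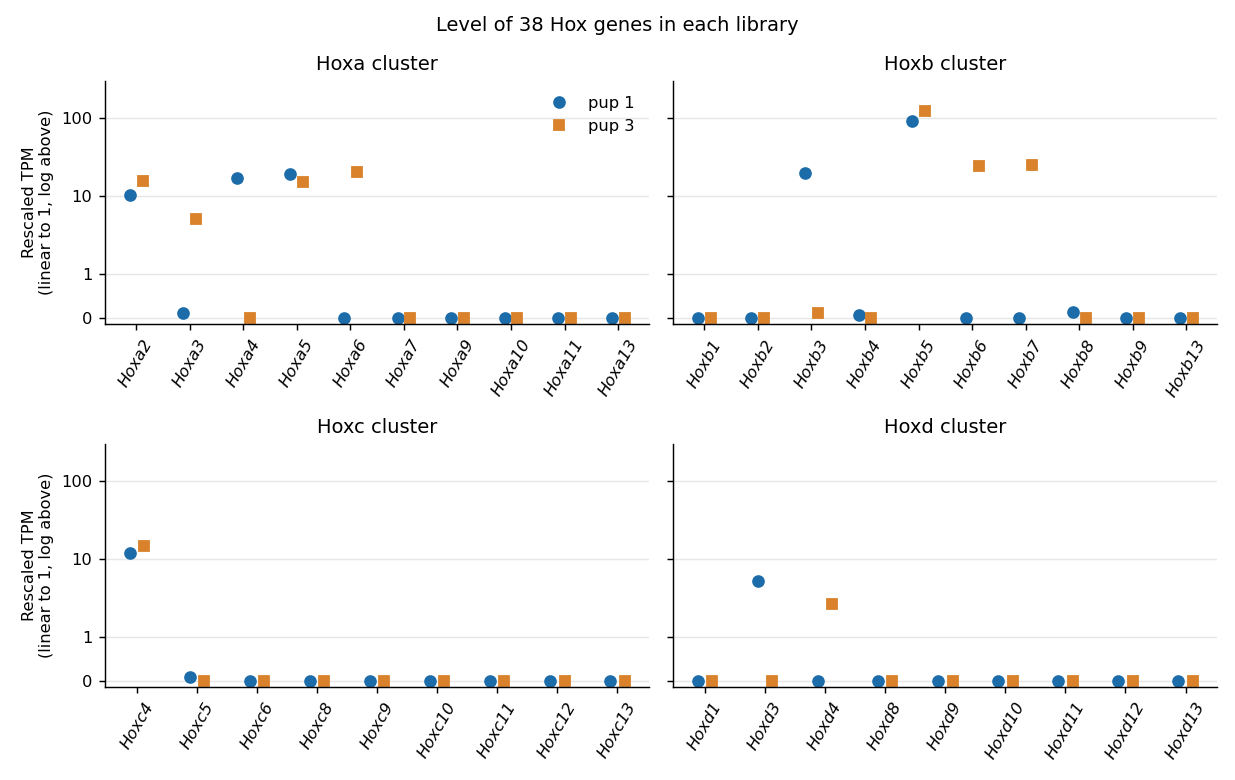
Level of 38 Hox genes in rescaled TPM (axis linear up to 1 and logarithmic above), circles for pup 1 and squares for pup 3, 1 panel per cluster with genes ordered by paralog group. Hoxb5 is the highest point in both pups at 93.2 TPM in pup 1, against 124 TPM in pup 3, and most genes numbered 7 or above lie at 0.

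By cluster, the Hoxb genes gave most of the signal, mainly through Hoxb5. They summed to 113 TPM in pup 1, against 175 TPM in pup 3, which is 63.8% of the Hox total in pup 1 and 70.3% in pup 3. The Hoxa genes summed to 47.2 TPM in pup 1, against 56.6 TPM in pup 3, the Hoxc genes to 11.9 TPM in pup 1, against 14.5 TPM in pup 3, and the Hoxd genes to 5.28 TPM in pup 1, against 2.67 TPM in pup 3. This order of the clusters was the same in both pups. The first place of Hoxb rested on Hoxb5 (93.2 TPM in pup 1, against 124 TPM in pup 3). Without it, the Hoxb sum lay below the Hoxa sum in both pups. Hoxa and Hoxb had 5 members each detected in at least 1 pup, Hoxd had 2, and Hoxc had 1, Hoxc4, the member nearest its 3′ end.

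**Figure D2:**
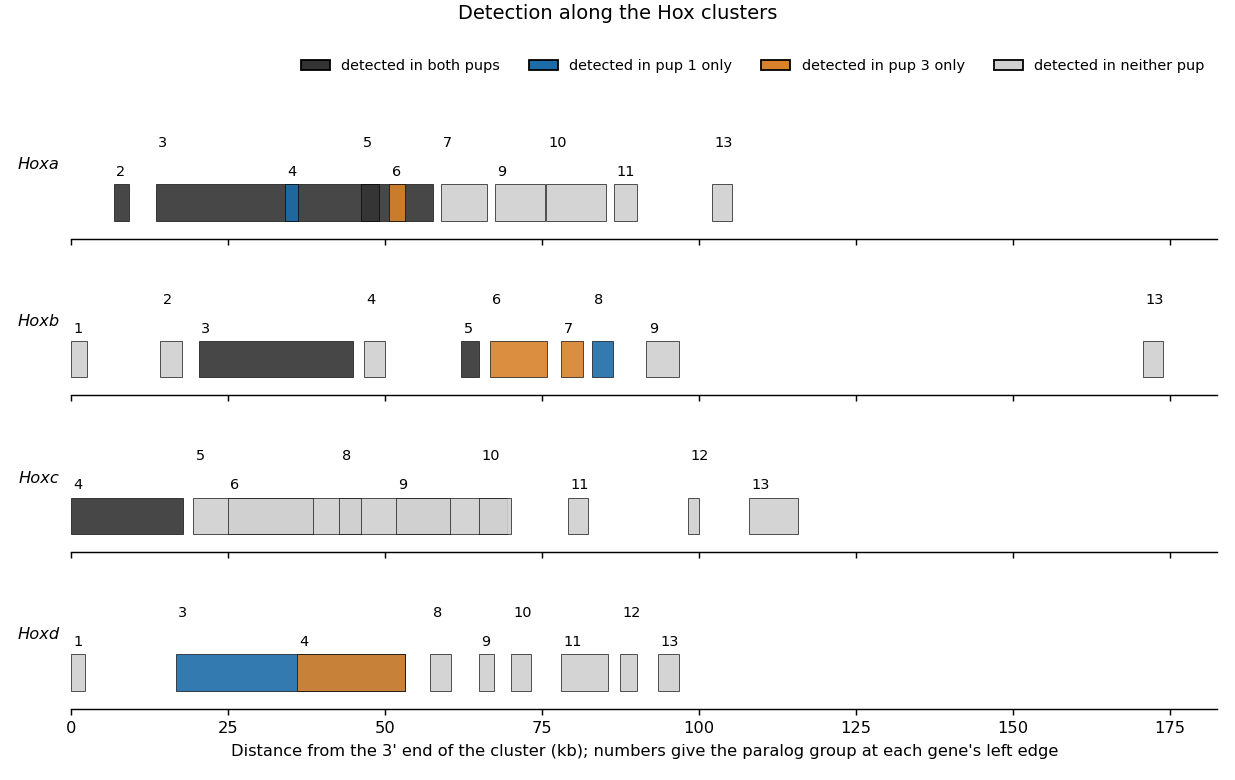
38 Hox genes of the 4 clusters drawn to scale by distance from the 3′ end of the cluster in kb, with the paralog group at the left edge of each gene and colour for detection in both pups, pup 1 only, pup 3 only or neither pup. Detected genes belong to groups 2 to 8, and none belongs to groups 9 to 13.

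By paralog group, every detected gene belonged to groups 2 to 8, a range that also held undetected members such as Hoxb4. Hoxb1 and Hoxd1 of paralog group 1, whose genes pattern the early hindbrain, had 0 counts in both pups. Group 2 summed to 10.3 TPM in pup 1, against 15.6 TPM in pup 3, all of it from Hoxa2. Group 3 summed to 25.3 TPM in pup 1, against 5.20 TPM in pup 3. Nearly all of the pup 1 value was assigned to non-coding transcripts of Hoxb3 and Hoxd3. On protein-coding transcripts alone, a setting chosen after the data were seen, the direction turned and group 3 summed to 0.237 TPM in pup 1, against 5.20 TPM in pup 3. That turn depends on the assignment of Hoxd3 reads to a transcript that mostly overlaps coding exons. Group 4 summed to 29.2 TPM in pup 1, against 17.2 TPM in pup 3. Group 5 was the highest, with 113 TPM in pup 1 against 139 TPM in pup 3 (mean 126 ± 18.9 TPM, SD, n = 2), which is 63.4% of the Hox total in pup 1 and 56.1% in pup 3. Groups 6 and 7 had 0 counts in pup 1, whereas in pup 3 they summed to 45.3 TPM and 25.6 TPM. Group 8 gave 0.135 TPM in pup 1 and 0 in pup 3. All 16 genes of groups 9 to 13 had 0 counts in both pups.

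Groups 1 to 5 together summed to 177.5 TPM in pup 1, against 177.5 TPM in pup 3, although their single genes differed: Hoxa4 and Hoxd3 were found in pup 1 only and Hoxd4 in pup 3 only. On protein-coding transcripts alone these sums were 152 TPM in pup 1, against 177 TPM in pup 3. Groups 6 to 13 summed to 0.135 TPM in pup 1, against 70.9 TPM in pup 3, which is 0.0763% of the Hox total in pup 1 and 28.5% in pup 3. The Hox sum of pup 1 minus that of pup 3 was -70.7 TPM over all transcripts and -95.7 TPM over protein-coding transcripts alone. Of the 15 genes of groups 1 to 5, 9 were detected in at least 1 pup, against 4 of the 24 genes of groups 6 to 13. Over all protein-coding genes 55.5% were detected in at least 1 pup.

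**Figure D3:**
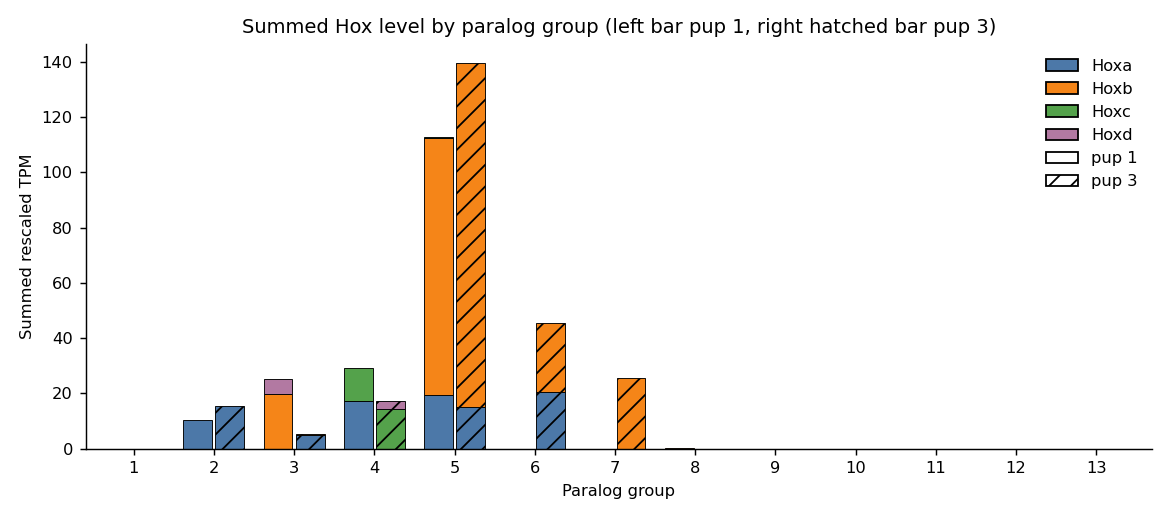
Summed rescaled TPM of each paralog group, left bar pup 1 and right hatched bar pup 3, stacked by cluster in colour. Group 5 is tallest in both pups at 113 TPM in pup 1, against 139 TPM in pup 3, and groups 6 and 7 have a bar in pup 3 only.

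Among the low groups, Hoxa2, which patterns the anterior rhombomeres and precerebellar neurons, had 339 counts (10.3 TPM) in pup 1 and 452 counts (15.6 TPM) in pup 3. Its log2 ratio of pup 1 over pup 3 was -0.55 (TPM with a pseudocount of 1). The ratio of its shares of nuclear counts had a 95% counting interval of -0.86 to -0.45 on the log2 scale. Such intervals cover counting error in these libraries only, and reads copied by amplification are not independent molecules. Its paralog Hoxb2, which acts in facial motor neuron development, had 0 counts in both pups.

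The group 3 genes, which act in rhombomeres 5 and 6 and in cranial motor neurons, each differed widely between the pups. Hoxa3 had 5 counts (0.102 TPM) in pup 1 and 232 counts (5.10 TPM) in pup 3, a log2 ratio of -2.47, and its count was at the detection limit in pup 1. Hoxb3 went the other way, with 150.39 counts (19.9 TPM) in pup 1 and 5.98 counts (0.1005 TPM) in pup 3, a log2 ratio of 4.25. On counts per nuclear total, which are not scaled by length, the log2 ratio of Hoxb3 was 2.18, and with a pseudocount of 5 that of Hoxa3 was -0.99. These were the only 2 of the 6 genes shared by the pups that differed by 4-fold or more, 1 higher in pup 1 (against 9.44% of the 8102 shared protein-coding genes) and 1 lower in pup 1 (against 11.6%). Hoxd3 had 287 counts (5.28 TPM) in pup 1 and 0 counts in pup 3. Against a floor of 3 counts in pup 3 that is at least 59.2-fold higher in pup 1. Every such bound below takes that floor, and the wider intervals given further on lower some of them. On protein-coding transcripts alone Hoxb3 had 0.135 TPM in pup 1, against 0.1005 TPM in pup 3, and Hoxd3 had 0 in both. As the reads were assigned, the levels of these genes in pup 1 thus rest on non-coding transcripts. For Hoxd3 the assignment is uncertain, as 90.0% of the bases of its non-coding transcript also lie in exons of coding ones.

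Group 4 genes are used from the boundary of rhombomeres 6 and 7 backwards. Hoxc4 had 463 counts (11.9 TPM) in pup 1 and 512 counts (14.5 TPM) in pup 3, a log2 ratio of -0.27 with a counting interval of -0.57 to -0.20 for the nuclear count shares. Hoxa4 had 536 counts (17.3 TPM) in pup 1 and 0 counts in pup 3, at least 157-fold higher in pup 1. Hoxd4 had 0 counts in pup 1 and 68 counts (2.67 TPM) in pup 3, at least 31.3-fold lower in pup 1 than in pup 3. Hoxb4 had 3 counts in pup 1 and 0 in pup 3, at the floor, so no fold is given. Only Hoxc4 of this group was thus found in both pups.

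Group 5 genes mark the caudal medulla and cervical cord, where Hoxa5 and Hoxc5 act in breathing motor neurons. Hoxb5 had 3468 counts (93.2 TPM) in pup 1 and 4078 counts (124 TPM) in pup 3, a log2 ratio of -0.41 with a counting interval of -0.54 to -0.41 for the nuclear count shares. Its level lay at the 82.5th percentile of detected protein-coding genes in pup 1 and the 83.6th in pup 3. Hoxa5 had 715 counts (19.4 TPM) in pup 1 and 495 counts (15.2 TPM) in pup 3, a log2 ratio of 0.33 with a counting interval of 0.12 to 0.46. Hoxc5 had 2 counts in pup 1 and 0 in pup 3. Hoxb5 was thus the 1 Hox gene above the median of detected protein-coding genes, which was 24.3 TPM in pup 1, against 33.5 TPM in pup 3. Every other Hox gene lay at or below the 43.6th percentile in pup 1 and the 41.2nd in pup 3.

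The detected genes of groups 6 and 7, trunk genes whose neural domains begin near the border of the hindbrain and cord, were seen in pup 3 alone. Hoxb7 had 0 counts in pup 1 and 557 counts (25.6 TPM) in pup 3, at least 129-fold lower in pup 1 than in pup 3. Hoxb6 had 0 counts in pup 1 and 596 counts (24.7 TPM) in pup 3, at least 263-fold lower in pup 1. Hoxa6 had 0 counts in pup 1 and 292 counts (20.6 TPM) in pup 3, at least 110-fold lower in pup 1. These 3 genes ranked after Hoxb5 as the next highest Hox genes of pup 3, above Hoxa2, Hoxa5 and Hoxc4. Hoxb6 and Hoxb7 are neighbours on chromosome 11 and lie between Hoxb5 and Hoxb8. Hoxb8, next to Hoxb7 on its 5′ side, had 7 counts (0.135 TPM) in pup 1 and 0 counts in pup 3, at least 1.14-fold higher in pup 1. The part of caudal tissue in the cut of the hindbrain was not tested.

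The bounds on these folds take a floor of 3 counts, and the tables also carry the quantifier's own intervals, on the scale of the deposited TPM. Where a gene was at 0 in pup 1, the upper bound there was 0.160 TPM for Hoxa6, 0.137 TPM for Hoxb6, 0.506 TPM for Hoxb7 and 0.173 TPM for Hoxd4. Where a gene was at 0 in pup 3, it was 0.0949 TPM for Hoxa4, 0.633 TPM for Hoxd3 and 0.340 TPM for Hoxb8. For Hoxd3, Hoxd4, Hoxb6 and Hoxb7 these upper bounds lay above the floor of 3 counts, so by them the smallest folds are below those given above. That floor was 0.0893 rescaled TPM for Hoxd3 in pup 3 and 0.198 rescaled TPM for Hoxb7 in pup 1. For Hoxb8 the upper bound exceeded the deposited level in pup 1, 0.12 TPM, so the pups could not be told apart on that gene.

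The genes detected in neither pup, beside Hoxb4 and Hoxc5, included Hoxa7, Hoxa9, Hoxa10, Hoxa11, Hoxa13, Hoxb1, Hoxb2, Hoxb9, Hoxb13, Hoxc6, Hoxc8 to Hoxc13, Hoxd1 and Hoxd8 to Hoxd13, which had 0 counts in both libraries. A count of 0 allows up to 3 counts, which for the 24 genes at 0 in both pups is 0.0595 to 0.160 TPM in pup 1 (median 0.0777) and 0.0674 to 0.181 TPM in pup 3 (median 0.0881). These genes include Hoxa9, Hoxb9, Hoxc9 and Hoxd9, whose group marks the thoracic cord, and group 10, which acts in lumbar motor neurons. The limits refer to the sequenced libraries, and RNA lost before amplification from so small an input does not enter them.

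How often any gene of a given level was missed gives a scale for the Hox genes found in 1 pup only. Of protein-coding genes at 10 to 30 TPM in pup 3, 17.1% were not detected in pup 1. In that range lay 6 Hox genes, of which Hoxa6, Hoxb6 and Hoxb7 were missing from pup 1 and Hoxa2, Hoxa5 and Hoxc4 were present. Of protein-coding genes at 10 to 30 TPM in pup 1, 30.5% were not detected in pup 3, and of the 5 Hox genes there Hoxa4 was missing. Among those present in pup 3, Hoxb3 was near the detection limit with 5.98 counts. Hoxd3 fell in the range of 3 to 10 TPM in pup 1, where 37.3% of protein-coding genes were missing from pup 3, and Hoxd4 in the range of 1 to 3 TPM in pup 3, where 25.4% were missing from pup 1. At 30 to 100 TPM in pup 1, the range of Hoxb5 there, 13.3% were missing from pup 3, and at 100 to 300 TPM in pup 3, its range there, 1.02% were missing from pup 1. Hoxa3 lay at 3 to 10 TPM in pup 3, where 19.8% were missing from pup 1. The ranges with no Hox gene were 1 to 3 TPM (44.8%) and 100 to 300 TPM (1.92%) in pup 1, and 30 to 100 TPM (9.8%) in pup 3. Not detected here means under 5 counts. A difference between the animals and a loss in either library cannot be told apart.

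**Figure D4:**
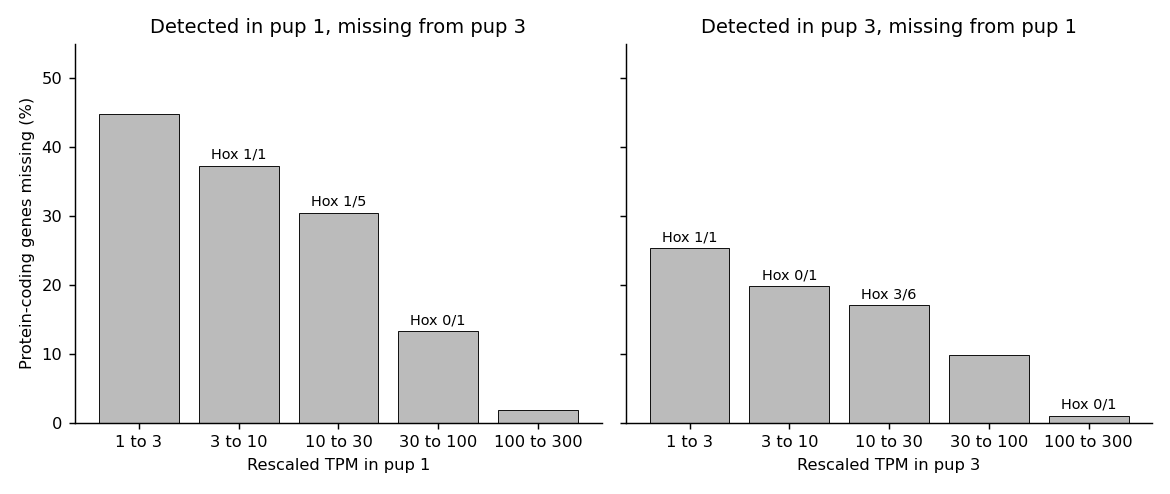
Percent of protein-coding genes detected in 1 pup but missing from the other, by rescaled TPM in the pup that has them, left for pup 1 and right for pup 3, with the number of Hox genes missing out of those in the range. At 10 to 30 TPM the bar is 30.5% for genes of pup 1 and 17.1% for genes of pup 3, beside 1 of 5 and 3 of 6 Hox genes.

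The 6 shared genes had a median log2 ratio of pup 1 over pup 3 of -0.34, with a range of -2.47 to 4.25. Over the 8102 shared protein-coding genes the median was -0.14, and the middle 95% ran from -3.88 to 3.67. Hoxb3 lay outside that range and the other 5 inside it. Hoxa2, Hoxa5, Hoxb5 and Hoxc4 all lay between -0.55 and 0.33. Hoxa3, at -2.47, was inside the middle 95% as well, so that range is too wide to set these 4 apart.

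Transcript tables showed which annotated transcript carried each gene's reads. In pup 1, 92.7% of Hox counts fell on protein-coding transcripts, and in pup 3 99.8%. The pup 1 shortfall came from Hoxb3 and Hoxd3. For Hoxb3, Hoxb3-204 (446 nt, a processed transcript with no annotated protein) took 142 counts and 99.34% of the gene's TPM in pup 1, and 0 counts in pup 3. The coding transcript Hoxb3-202 had 8.39 counts in pup 1 and 5.98 counts in pup 3. On coding transcripts alone Hoxb3 was therefore near the detection limit in both pups, and the TPM difference between them rests on the short transcript. For Hoxd3, all 287 counts of pup 1 were on Hoxd3-206, a single-exon retained-intron transcript of 2721 nt, 90.0% of whose bases also lie in exons of coding Hoxd3 transcripts. No other Hoxd3 transcript had a count in either pup.

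The remaining genes used coding transcripts. Hoxb5-201 took 99.91% of the Hoxb5 TPM in pup 1 and 99.81% in pup 3, with the retained-intron transcript Hoxb5-202 at 0.09% in pup 1 and 0.19% in pup 3. For Hoxc4, Hoxc4-201 took 100% in pup 1 and 67.19% in pup 3. Hoxc4-202, which starts further upstream and has 4 exons, took 0% in pup 1 and 32.81% (176.08 counts) in pup 3. In pup 3 Hoxb6 was split between Hoxb6-201 with 84.61% and Hoxb6-202 with 15.39%, both coding. Hoxb7-201, Hoxd4-202 and Hoxa3-201 took all of their genes' TPM in pup 3. Of the 4 shared genes with several transcripts, 3 had the same main transcript in both pups (Hoxa3, Hoxb5 and Hoxc4).

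**Figure D5:**
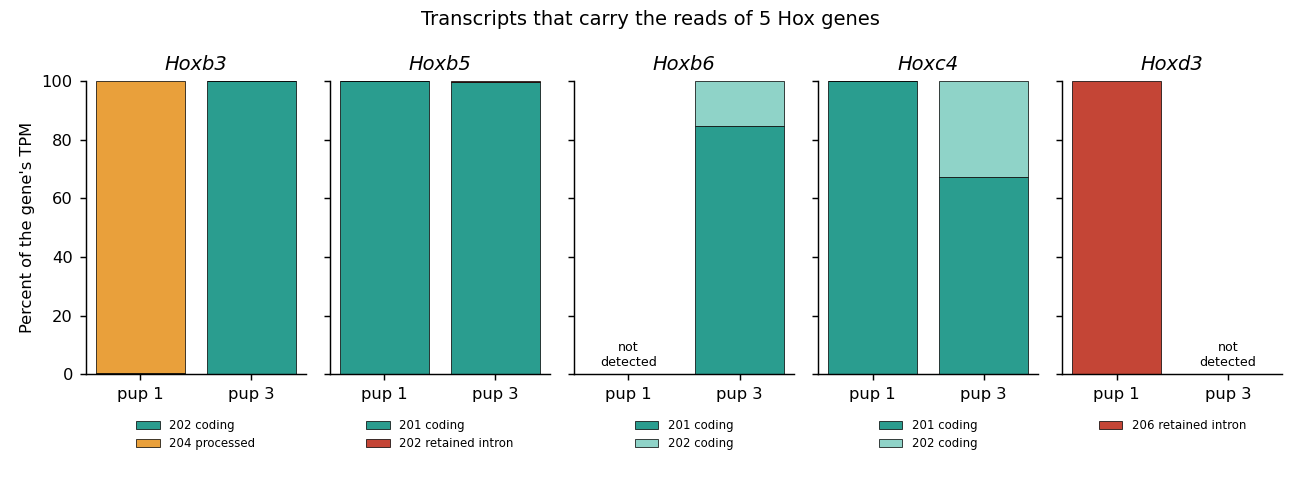
Percent of each gene's TPM that each annotated transcript takes, for Hoxb3, Hoxb5, Hoxb6, Hoxc4 and Hoxd3, pup 1 left and pup 3 right, coloured by transcript type. Hoxb3-204 (processed) fills 99.34% of Hoxb3 in pup 1, Hoxd3-206 (retained intron) fills Hoxd3 in pup 1, and Hoxc4-202 takes 32.81% of Hoxc4 in pup 3.

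The clusters also hold 45 other annotated genes, of which 4 were detected in both pups and 37 in neither. Pup 1 alone had 3 of the 45 and pup 3 alone had 1. The 37 include microRNA and other entries shorter than the size range of these libraries. Mir10b and Mir196b, for example, had an effective length of 0 in pup 1. The count of 37 thus says little about use of the clusters, and no share over all annotated genes was set beside it. Hotairm1, named for its expression in human myeloid cells and transcribed at the 3′ end of the Hoxa cluster on the opposite strand, had 31.8 TPM (151.33 counts) in pup 1 and 15.6 TPM (64 counts) in pup 3. Hoxaas3, antisense over the middle of the Hoxa cluster, had 19.2 TPM (189 counts) in pup 1 and 0 counts in pup 3. Hoxb5os, which spans Hoxb5 and Hoxb6 on the opposite strand, had 0 counts in pup 1 and 6.72 TPM (61 counts) in pup 3, the pup in which Hoxb6 was also seen. Hoxb3os had 0.316 TPM (14.61 counts) in pup 1 and 3.57 TPM (142.02 counts) in pup 3, opposite in direction to Hoxb3, whose difference rests on the transcript Hoxb3-204.

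The overlap of these antisense genes with Hox exons limits some counts. Exons of Hoxb3os cover 70.5% of the 3190 bases of Hoxb3-202. The sources used here name no strand setting. Hoxb3-202 had 8.39 counts in pup 1 and 5.98 in pup 3. Hoxb3os-201, on the opposite strand, had 14.61 counts in pup 1 and 128.02 in pup 3. In each pup these fractions complete each other to a whole number, so reads were split between these opposite-strand transcripts. For Hoxb3-202, sense and antisense reads thus cannot be told apart. For Hoxb5 the overlap with Hoxb5os was 100 bases, 3.59% of its exon bases. Further cluster genes, picked after their values were seen, were Haglr with 8.38 TPM in pup 1 against 0.335 TPM in pup 3, Gm15050 with 12.6 TPM in pup 1 against 0.971 TPM in pup 3, Gm11536 with 2.54 TPM in pup 1 and 0 in pup 3, and Gm27477 with 7 counts in pup 1 and 2 in pup 3. Haglr ends beside the 3′ end of Hoxd3, shares 21 bases with Hoxd3-206, and was higher in the pup that had Hoxd3 counts.

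The clusters carry microRNA genes that repress Hox messages, and their mature sequences are shown with the seed, bases 2 to 8, in capitals, because the pairs share a seed across clusters (RefSeq, GRCm38.p6).
miR-10a-5p: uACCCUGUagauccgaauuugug
miR-10b-5p: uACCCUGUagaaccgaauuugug
miR-196a-5p: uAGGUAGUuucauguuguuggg
miR-196b-5p: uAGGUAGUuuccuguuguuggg
The gene of miR-10a lies between Hoxb4 and Hoxb5 (mature sequence at chr11:96317186-96317208, plus strand) and that of miR-10b upstream of Hoxd4-202 (chr2:74726074-74726096, plus strand). The entries Mir10a, Mir10b, Mir196a-1, Mir196a-2 and Mir196b all had 0 counts in both pups. Mature miRNAs of 22 or 23 nt lie below the 200 nt size range of these libraries, so the counts say nothing of them.

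Promoter sequences (300 bases around a gene's start, most of them upstream of it, from RefSeq, GRCm38.p6) were matched for 22 of the 39 Hox genes. Among the 4 of the 6 shared genes that matched (Hoxa2, Hoxa3, Hoxa5 and Hoxc4), the longest exact run between a pair was 12 bases. This run lay in Hoxa5 and Hoxc4. It was found in 2 of 32851 promoters (0.00609%, either strand), these 2. It is in capitals in 60 bases of each promoter.
Hoxa5 promoter: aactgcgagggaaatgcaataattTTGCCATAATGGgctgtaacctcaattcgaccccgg
Hoxc4 promoter: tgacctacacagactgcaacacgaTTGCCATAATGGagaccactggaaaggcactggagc
The Hoxa5 stretch is chr6:52204714-52204773 on the minus strand, with the run starting at -162 from the gene's start. That of Hoxc4 is chr15:103034249-103034308 on the plus strand, with the run starting at -122. The pair was chosen after the runs were seen, and the match is a description of sequence only.

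Simple motifs were counted on both strands in the 24 promoter entries of these 22 Hox genes. The nuclear receptor half-site AGGTCA was in 7 of 24 (29.2%, against 16.3% of all promoters), in Hoxa5, Hoxb4, Hoxc4, Hoxd3, Hoxd4, Hoxd8 and Hoxd10. The Hox and Pbx motif TGATNNAT was in 4 of 24 (16.7%, against 8.85%), in Hoxa2, Hoxb1, Hoxb8 and Hoxd11. The TATA motif TATAAA was in 4 of 24 (16.7%, against 13.6%), in Hoxa10, Hoxb8, Hoxd4 and Hoxd13. The median number of CpG sites per promoter was 16.5 for the 8 Hox genes detected in at least 1 pup and 13.5 for the 14 detected in neither, against 7 over all promoters.

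Among partners of Hox proteins, all 9 TALE genes were detected in pup 1, against 50% of protein-coding genes, and 7 of them in pup 3, against 43.2%. Meis1 had 228 TPM in pup 1 against 195 TPM in pup 3, Meis2 131 TPM in pup 1 against 163 TPM in pup 3, and Pbx3 51.3 TPM in pup 1 against 33.4 TPM in pup 3. Pbx4 had 99.6 TPM in pup 1 and 0 counts in pup 3. Meis1 and Meis2 were thus above Hoxb5 in level in both pups.

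Of 18 retinoic acid genes, 6 were detected in both pups, 3 in pup 1 only and 2 in pup 3 only, beside 37.8%, 12.3% and 5.45% of all protein-coding genes. Crabp1, which binds retinoic acid in the cytoplasm, had 56.4 TPM in pup 1 against 340 TPM in pup 3. Dhrs3, which returns retinaldehyde to retinol, had 120 TPM in pup 1 against 116 TPM in pup 3. Crabp2 had 39.6 TPM in pup 1 against 33.7 TPM in pup 3. Aldh1a2, an enzyme that makes retinoic acid and is present in meninges, was picked after its value was seen. It had 2 counts in pup 1 and 2005 counts (50.7 TPM) in pup 3, the pup with Hoxa6, Hoxb6 and Hoxb7. Of the meninges markers given above, Ptgds, Dcn, Col1a1 and Col1a2 were higher and Col3a1 and Foxc1 were lower in that pup. The part of meninges in the Hox values was not tested.

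The upstream segmentation genes of the embryo were mostly at 0. Of 10, Gdf11, a signal that posteriorises the cord, was detected in both pups (3.60 TPM in pup 1 against 18.1 TPM in pup 3). Of the 10, 8 had 0 counts in both pups (41.4% over all protein-coding genes), among them Egr2 and the Cdx genes. Of 35 Polycomb, trithorax and architectural genes, 24 were detected in both pups (37.8% over all protein-coding genes), with Rbbp4 at 263 TPM in pup 1, against 196 TPM in pup 3, Rbbp7 at 179 TPM in pup 1, against 143 TPM in pup 3, Mtf2 at 52.5 TPM in pup 1, against 121 TPM in pup 3, and Smc3 at 112 TPM in pup 1, against 49.6 TPM in pup 3. A list of 20 hindbrain targets and partners of Hox had 10 members detected in both pups (again beside 37.8%), led by Rnd3 with 87.3 TPM in pup 1 against 94.4 TPM in pup 3. It was followed by Robo2 with 37.3 TPM in pup 1 against 71.9 TPM in pup 3, Epha7 with 54.6 TPM in pup 1 against 27.0 TPM in pup 3, and Pou4f1 with 49.3 TPM in pup 1 against 24.7 TPM in pup 3.

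Of 14 genes that flank the clusters 9 were detected in both pups (37.8% over all protein-coding genes). Skap1, on the side of Hoxb1, and Ttll6, on the side of Hoxb13, had 0 counts in both pups, as did those Hox genes. Beside Hoxc, Hnrnpa1 had 615 TPM in pup 1 against 260 TPM in pup 3, and Cbx5 97.0 TPM in pup 1 against 114 TPM in pup 3. Mtx2, beside Hoxd, had 183 TPM in pup 1 against 96.9 TPM in pup 3, and Hibadh, beyond Hoxa, 79.2 TPM in pup 1 against 91.1 TPM in pup 3. Snx10, Calcoco1, Lnpk, Snx11 and Skap2 were also detected in both pups, at 0.711 to 73.3 TPM in pup 1 and 15.8 to 86.2 TPM in pup 3. Smug1 had 35.3 TPM in pup 1 and 0 counts in pup 3. The homeobox genes Evx1, next to Hoxa13, and Evx2, next to Hoxd13, were low: Evx1 had 22 counts (0.384 TPM) in pup 1 and 0 in pup 3, and Evx2 had 0 counts in pup 1 and 184 counts (2.46 TPM) in pup 3, while both adjoining Hox genes had 0 counts.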

How the data were processed

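The authors deposited a gene table and a transcript table for each of the 2 libraries, made on mm10 with annotation M4 from transcriptome alignments, per the deposited notes. Per the file headers the tables give the expected count (reads shared among transcripts are split), the deposited TPM, the deposited FPKM and, for transcripts, the percent of the gene's TPM. The columns have the layout of RSEM. The sources used here name no aligner, version or strand setting.

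Gene identifiers were matched to GENCODE M21 (GRCm38, 98.0% matched), and Hox genes were taken by symbol. The 87 Hox transcripts all matched. TPM was rescaled to a total of 1000000 over 43309 nuclear genes. Detection needed 5 expected counts, log2 ratios used TPM plus 1, and the floor for a 0 count was 3 counts at the gene's effective length in that library. Counting intervals are exact binomial (95%). Expected counts were rounded for the edgeR 4.0.16 and DESeq2 1.42.0 scaling factors, which were alternatives only. R 4.3.3, Python 3.11.15, pandas 2.3.3 and scipy 1.17.1 were used. The ratio and detection steps were tested on simulated data.

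All Hox genes are accounted for in the counts. Those with 5 or more expected counts in a library are named with values, as are the 4 members of each Hox-related list with the highest mean TPM, detected cluster RNAs and neighbours, and transcripts of genes with several transcripts and at least 50 counts in a library. Members and lists were chosen with earlier results of these data known. Some genes that this rule names are not reported here.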

Additional observations from a re-analysis of the deposited data

How the results depend on the processing

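Each pup has 1 library, so loss of RNA before amplification has no measure. With pup 1 thinned to the depth of pup 3, 5 genes were detected in both pups, in place of 6, and 5 in pup 3 only, in place of 4. No paired analysis was possible because there is 1 group. Of the summary values under other settings, 56 stayed close to the reported value and 10 moved, by a broad measure of close. A fall from 6 genes to 4 counted as close, as did a sum or share within the SD over the pups. Genes detected in both pups numbered 6 with a minimum count of 1 and 4 with a minimum of 10 or with 1 deposited TPM. Genes detected in pup 1 only numbered 5 in place of 3 with a minimum count of 1. With 1 library alone, Hox genes detected numbered 9 to 10 in all, 7 to 8 in groups 1 to 5 and 1 to 3 in groups 6 to 13. Over the 6 shared genes alone, the Hox sum in pup 3 was 175 TPM, the share of Hoxb genes in pup 1 was 73.0%, and the share of groups 4 and 5 in pup 3 was 88.1%. On protein-coding transcripts alone, a setting chosen after seeing the data, the share of groups 4 and 5 in pup 1 was 93.0%, in place of 79.9%, and groups 1 to 5 summed to 152 TPM in pup 1, against 177 TPM in pup 3. No log2 ratio of a shared Hox gene changed sign. The ratios of Hoxa3 (-5.35 to -0.99) and Hoxb3 (2.18 to 6.64) moved most with the pseudocount and the scaling. The median log2 ratio of all 8931 shared nuclear genes was -0.12 in the reported TPM and moved to between -0.17 and 0.01 under other scalings.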
